A study of Mus musculus with 6 samples.

Results

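The genes examined here lie beside *Trp53* on mouse chromosome 11, next to the alleles that were floxed to delete p53. They are 10 genes chosen by position and name, *Wrap53*, *Efnb3*, *Dnah2*, *Kdm6b*, *Atp1b2*, *Shbg*, *Sat2*, *Fxr2*, *Mpdu1* and *Eif4a1*, out of 54167 genes with a value in each tumor. Not every gene of the stretch is among them (*Cd68*, for one, is not), and they were chosen with earlier results of these data known. RNA was sequenced from 6 colorectal (CRC) tumors, 3 from *Trp53*fl/fl mice and 3 from *VP* mice. Both genotypes carried loxP sites in both copies of *Trp53*. Only *VP* mice also carried *Pvillin-Cre*, a Cre recombinase driven by the villin promoter. The paper's methods list C57B6/J mice beside both genotypes and do not say whether the floxed mice were of that strain. Male mice were injected at 8 weeks of age with the carcinogen azoxymethane (AOM, 10 mg/kg), then given repeated cycles of 2.5% dextran sulfate sodium (DSS), which injures the colon lining, for 7 days each, and tumors were taken on day 98. The villin promoter is active in intestinal epithelium, so Cre is not expected in the fibroblasts, vessels and immune cells of a *VP* tumor, and recombination by cell type was not measured here. The deposited values are TPM (the share of transcripts from each gene, scaled to the same total in every tumor), which are already divided by transcript length, so that levels can be compared between genes. In whole tumors, fewer cells of a type and less RNA per cell cannot be told apart.

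*Trp53* encodes p53, a transcription factor that stops the cell cycle or triggers cell death after DNA damage. Cre recombinase cuts out the DNA between its paired loxP sites and leaves the flanking DNA in place. A chromosome segment around an engineered allele is inherited with it, and neighbouring genes can share promoters, enhancers or overlapping transcripts, so the genes at each side are a standard check on such an allele. Both genotypes carried the floxed allele, so their comparison cannot test an effect of the segment inherited with it. The question is whether the RNA of the neighbouring genes differed between tumors with and without the deletion.

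*Wrap53* is the nearest gene and lies head to head with *Trp53*. It ends at position 69580255 on the minus strand and *Trp53* starts at 69580359 on the plus strand (GRCm38, GENCODE M21), so that 103 bases separate them. The start of *Trp53* in RefSeq is a little earlier, which leaves 92 bases outside every gene model of either annotation. They are shown because they are the bases between the closest neighbour and the targeted gene, chr11:69580256-69580347 on the plus strand of GRCm38.p6 from RefSeq, with *Wrap53* to the left and *Trp53* to the right. Capitals mark the only match to the p53 half-site pattern, searched by its name with its degenerate letters, which reads alike on both strands.
between *Wrap53* and *Trp53*: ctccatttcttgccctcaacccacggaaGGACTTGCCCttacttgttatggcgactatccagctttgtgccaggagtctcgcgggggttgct
These bases had a GC content of 55.4%. A half-site occurs in 8.36% of the 32851 RefSeq promoter windows of 300 bases, so this match is a description of the sequence and no more.

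Of the 10 neighbours, 7 matched a RefSeq promoter window, with 8 windows in all because *Wrap53* has a pair. *Kdm6b*, *Efnb3* and *Atp1b2* had none. The half-site was found in 1 of the 8 windows, that of *Wrap53* shown above. The GC box GGGCGG was in 4 of the 8 windows against 35.7% of all windows, the CCAAT box in 4 against 37.4%, the E-box CACGTG in 2 against 7.15% and the TATA box TATAAA in 1 against 13.6%. Each pattern was searched on both strands. The GC content of 7 of the 8 windows was above that of the median window (52.7%), from 55.7% (*Shbg*) to 71.3% (*Fxr2*), and that of *Sat2* was at 49.7%. The sequence upstream of *Sat2*, chr11:69621802-69621995 on the plus strand of GRCm38.p6, is shown because *Sat2* differed most between the genotypes. None of the 5 patterns occurs in these 194 bases, so no letter is in capitals.
upstream of *Sat2*: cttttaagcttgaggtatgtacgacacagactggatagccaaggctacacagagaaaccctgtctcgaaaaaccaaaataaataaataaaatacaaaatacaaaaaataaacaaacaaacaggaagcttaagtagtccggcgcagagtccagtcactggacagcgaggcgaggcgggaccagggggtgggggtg
The CCAAT box counted for *Sat2* lies in the rest of its window, at or past the earliest annotated start of the gene.

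In brief, the targeted gene fell and none of its neighbours passed the test. *Trp53* RNA fell to 26.7% of its mean level in *Trp53*fl/fl tumors. The 7 neighbours with enough RNA to test had log2 changes from -0.18 to 0.74. *Sat2*, a member of the polyamine acetyltransferase family, was the only one of these whose values did not overlap between genotypes, with a *VP* mean at 206% of the *Trp53*fl/fl mean, and it did not pass the adjustment either.

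The 3 *Trp53*fl/fl tumors had 124.94, 99.30 and 147.45 TPM of *Trp53*, and the 3 *VP* tumors had 38.45, 32.79 and 27.83 TPM. Every *VP* tumor was below every *Trp53*fl/fl tumor, so the targeted gene went with the labels, and RNA was left in all *VP* tumors. Changes are differences of mean log2(TPM + 1), *VP* minus *Trp53*fl/fl, a scale on which changes of genes at low levels come out too small. The test was limma, fitted to the 15117 genes that reached 1 TPM or more in 3 or more tumors. The log2 change of *Trp53* was -1.87 (95% interval -2.29 to -1.44, limma adjusted p = 0.0207). Its direction was kept but the call was lost without *Trp53*fl/fl replicate 1 (limma adjusted p = 0.0968), *Trp53*fl/fl replicate 3 (0.0561), *VP* replicate 1 (0.0605) or *VP* replicate 2 (0.108). The call was also lost without the filter on low values (limma adjusted p = 0.104) and with the replicate number as a block (0.0883). Only 25 genes were called at an adjusted p under 0.05 in the whole table, or 0.165% of those tested (0.0794% higher and 0.086% lower in *VP* tumors), and that count ran from 3 without *Trp53*fl/fl replicate 1 to 23 without *VP* replicate 3. It was 14 without *Trp53*fl/fl replicate 2, 9 without replicate 3, 7 without *VP* replicate 1 and 5 without *VP* replicate 2.

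Among the neighbours, 7 of 10 passed the filter and 0 of those 7 were called by limma at an adjusted p under 0.05, where 0.165% of all genes tested were. With an unadjusted limma p under 0.05 there was 1 of 7, against 12.5% of all genes (4.51% higher and 8% lower in *VP* tumors). Their median log2 change was -0.05 and that of all genes tested was -0.07. The genotypes did not overlap for 1 of the 7, against 19.3% of all genes tested (6.03% higher and 13.3% lower in *VP* tumors). These shares are near the background.

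**Figure D1:**
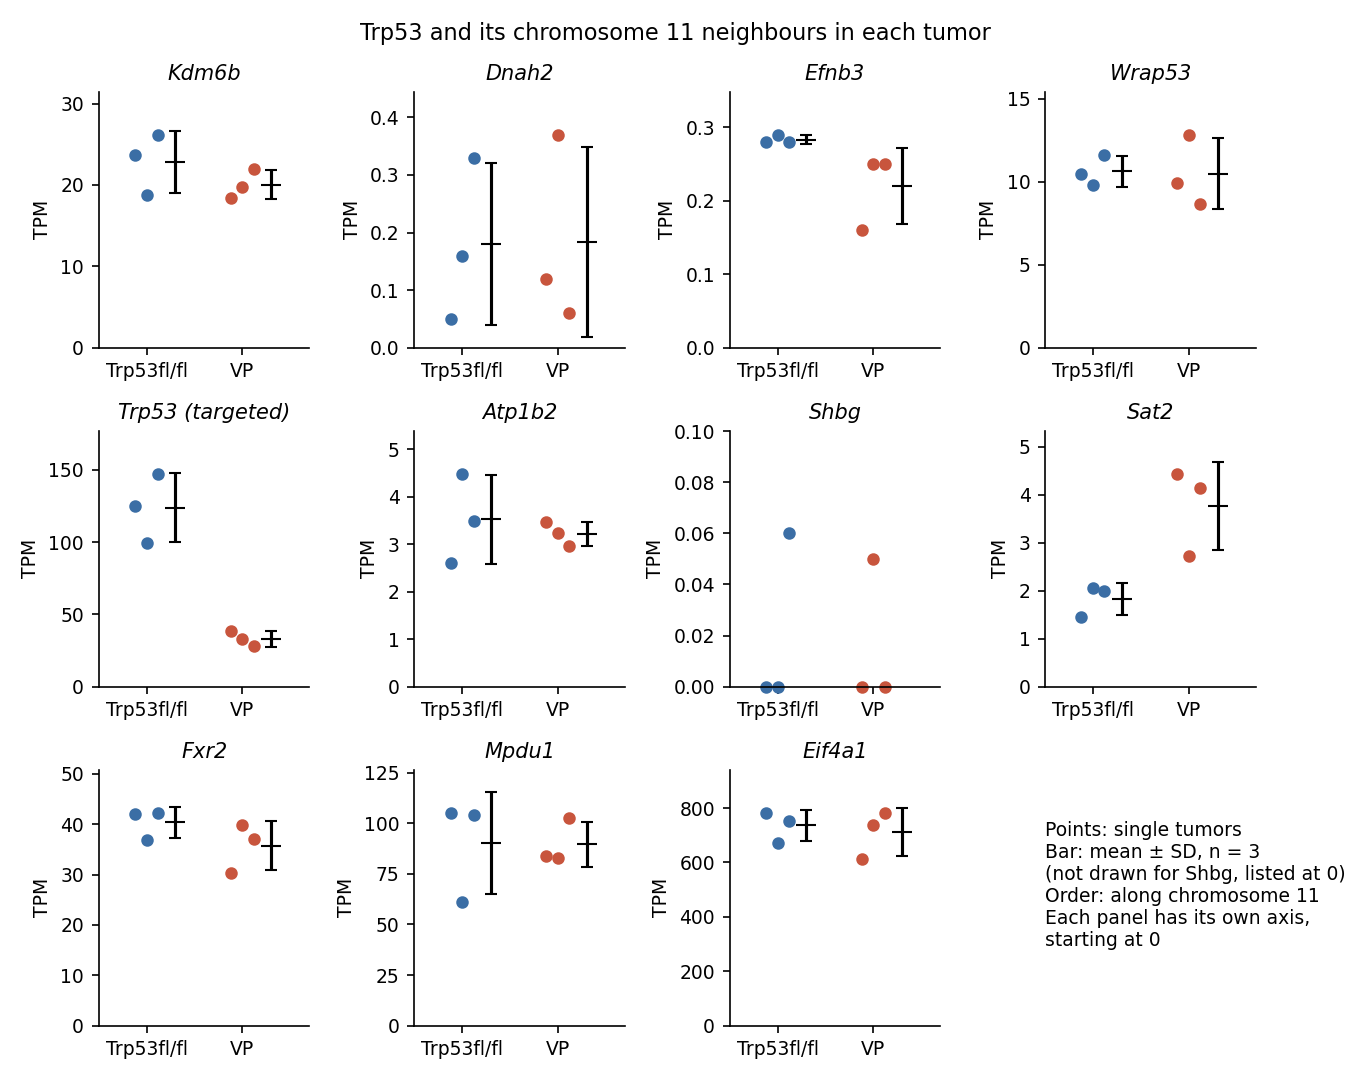
TPM of *Trp53* and its 10 neighbours in each tumor, in their order along chromosome 11, with *Trp53*fl/fl tumors in blue and *VP* tumors in red, and with the mean and SD of 3 tumors beside them except for *Shbg*, which was listed at 0 in most tumors. Each panel has its own axis from 0, and the genotypes separate for *Trp53*, for *Sat2* (1.45 to 2.05 against 2.73 to 4.44 TPM) and for the weakly expressed *Efnb3*, while the others overlap.

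*Wrap53* (ENSMUSG00000041346, 69561758 to 69580255, minus strand) encodes a WD40-repeat protein, TCAB1, that brings telomerase and small Cajal body RNAs to Cajal bodies, and antisense transcripts from its start are known in human cells to regulate p53. It was at 10.46, 9.81 and 11.62 TPM in *Trp53*fl/fl tumors, while *VP* tumors had 9.94, 12.85 and 8.69 TPM. Both the highest and the lowest value were in *VP* tumors, and the genotypes overlapped. The log2 change was -0.03 (SE 0.17, 95% interval -0.43 to 0.37, limma adjusted p = 0.953). The interval lies wholly above that of *Trp53*, although the genes are 103 bases apart. The direction of this small difference was positive with median-of-ratios or quantile scaling. The libraries are not stated to keep strand, so transcripts of the pair that overlap could not be separated by strand. Positions in parentheses are on chromosome 11 of GRCm38 (GENCODE M21), here and for the other neighbours.

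The next 2 genes on the *Wrap53* side were close to the lower limit of the table. *Efnb3* (ENSMUSG00000003934, 69554092 to 69560205, minus strand), 20.15 kb away, encodes ephrin-B3, a membrane ligand of Eph receptors, known for guiding axons. It was at 0.28, 0.29 and 0.28 TPM in *Trp53*fl/fl tumors, against 0.16, 0.25 and 0.25 TPM in *VP* tumors. The *VP* tumors were all lower, but every value was under the 1 TPM needed for a test. *Dnah2* (ENSMUSG00000005237, 69420809 to 69549110, minus strand), 31.25 kb away, encodes a heavy chain of the dynein motor of motile cilia, which colon epithelium does not carry. It was at 0.05, 0.16 and 0.33 TPM in *Trp53*fl/fl tumors, while *VP* tumors had 0.12, 0.37 and 0.06 TPM, with overlap. Its antisense gene *Dnah2os* shares 312 exonic bases with it, and the reads of both cannot be told apart without strand.

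*Kdm6b* (ENSMUSG00000018476, 69398508 to 69413675, minus strand), 166.68 kb from *Trp53*, encodes JMJD3, a demethylase that removes the repressive H3K27 methyl mark. It was at 23.63, 18.73 and 26.18 TPM in *Trp53*fl/fl tumors, against 18.44, 19.70 and 21.94 TPM in *VP* tumors. The *VP* mean was 87.7% of the *Trp53*fl/fl mean of 22.8 ± 3.79 TPM (SD, n = 3), a difference smaller than that SD. The log2 change was -0.17 (SE 0.15, 95% interval -0.53 to 0.19, limma adjusted p = 0.646). Its antisense gene *Kdm6bos*, which shares 286 exonic bases or 4.11% of the exonic bases of *Kdm6b*, was listed at 0 in all *Trp53*fl/fl tumors, against 0.21, 0.31 and 0.72 TPM in *VP* tumors. That gene was under the filter and was not tested.

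On the other side of *Trp53*, *Atp1b2* (ENSMUSG00000041329, 69599736 to 69605942, minus strand) is the nearest gene, 7.86 kb away, and encodes a beta subunit of the sodium pump that is best known in glia. It was at 2.61, 4.49 and 3.49 TPM in *Trp53*fl/fl tumors, while *VP* tumors had 3.46, 3.23 and 2.96 TPM. The *VP* values lay within the range of the *Trp53*fl/fl values. The log2 change was -0.08 (SE 0.20, 95% interval -0.55 to 0.38, limma adjusted p = 0.874), and it was at 0.01 with quantile scaling. *Shbg* (ENSMUSG00000005202, 69614804 to 69617905, minus strand), 22.93 kb away, encodes a plasma carrier of sex steroids. It was listed at 0, 0 and 0.06 TPM in *Trp53*fl/fl tumors, against 0, 0.05 and 0 TPM in *VP* tumors, which left nothing to compare.

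*Sat2* (ENSMUSG00000069835, 69622024 to 69623870, plus strand), 30.15 kb from *Trp53*, encodes a relative of the spermidine and spermine acetyltransferase *Sat1*. It was at 1.45, 2.05 and 2.0 TPM in *Trp53*fl/fl tumors, while *VP* tumors had 4.44, 2.73 and 4.15 TPM. The lowest *VP* tumor, replicate 2, was above the highest *Trp53*fl/fl tumor. The means were 1.83 ± 0.333 and 3.77 ± 0.915 TPM (SD, n = 3 each). The log2 change was 0.74 (SE 0.21), a fold change of 1.67 on the log2(TPM + 1) scale with a 95% interval from 1.18 to 2.36. The unadjusted limma p was 0.00993 and the adjusted p was 0.303, the 495th smallest p of the 15117 genes, with 4.51% of all genes at an unadjusted p under 0.05 and higher in *VP* tumors. Over the 13 alternative settings that tested the gene, the log2 change stayed between 0.56 and 0.99 and the adjusted p between 0.165 and 0.667. The depth behind these low values is unknown because TPM keep no read numbers.

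*Fxr2*, *Mpdu1* and *Eif4a1* follow at higher coordinates and were among the more abundant neighbours. *Fxr2* (ENSMUSG00000018765, 69632990 to 69653297, plus strand), 41.12 kb away, encodes an RNA-binding relative of the fragile X protein. It was at 42.03, 36.83 and 42.31 TPM in *Trp53*fl/fl tumors, against 30.35, 39.82 and 37.04 TPM in *VP* tumors. The lowest value was in *VP* replicate 1 and the other *VP* values fell between *Trp53*fl/fl values. Its log2 change was -0.18 (SE 0.13, 95% interval -0.50 to 0.14, limma adjusted p = 0.594). *Mpdu1* (ENSMUSG00000018761, 69656697 to 69662642, minus strand), 64.82 kb away, encodes an endoplasmic reticulum protein needed to use dolichol-linked mannose for glycosylation. It was at 105.26, 61.04 and 104.01 TPM in *Trp53*fl/fl tumors, while *VP* tumors had 83.79, 82.77 and 102.43 TPM. *Trp53*fl/fl replicate 2 was well below the other tumors, and the *VP* values lay inside the *Trp53*fl/fl range. The log2 change was 0.03 (SE 0.22, 95% interval -0.50 to 0.55, limma adjusted p = 0.967), and it was -0.23 without *Trp53*fl/fl replicate 2, -0.07 without *VP* replicate 3 and -0.15 when the tumors were centred on epithelial genes. *Eif4a1* (ENSMUSG00000059796, 69666936 to 69672423, minus strand), 75.06 kb away, encodes the RNA helicase of the translation initiation complex eIF4F. It was at 783.14, 672.04 and 753.44 TPM in *Trp53*fl/fl tumors, against 613.03, 738.72 and 782.24 TPM in *VP* tumors. The lowest value was again in *VP* replicate 1, and the highest values of the genotypes were within 1 TPM of each other. Its log2 change was -0.05 (SE 0.13, 95% interval -0.36 to 0.26, limma adjusted p = 0.879), and it was 0.02 with median-of-ratios scaling. Small nucleolar RNA genes lie inside *Eif4a1*, and 31 exonic bases of *Mpdu1* are shared with *Sox15* on the opposite strand.

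The levels of the 10 neighbours spanned from the most abundant, *Eif4a1* (median 746 TPM over the 6 tumors), to *Shbg* (listed at 0 in 4 of 6 tumors). The order by median TPM was *Eif4a1*, *Mpdu1* (93.1), *Fxr2* (38.4), *Kdm6b* (20.8), *Wrap53* (10.2), *Atp1b2* (3.34), *Sat2* (2.39), *Efnb3* (0.265), *Dnah2* (0.14) and *Shbg*. The ranges of *Atp1b2* and *Sat2* overlapped, as did those of *Efnb3* and *Dnah2* and those of *Dnah2* and *Shbg*. All other neighbours in this order were separated by their ranges over the 6 tumors. The coefficient of variation over the 6 tumors was between 9.37% (*Eif4a1*) and 43.8% (*Sat2*) for the 7 tested genes, against 66.5% for *Trp53*.

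A plain ratio of TPM within each tumor does not depend on a factor by which that tumor was scaled. The TPM of *Wrap53* divided by that of *Trp53* was 0.0837, 0.0988 and 0.0788 in *Trp53*fl/fl tumors and 0.259, 0.392 and 0.312 in *VP* tumors. The ratio of each of the 7 tested neighbours to *Trp53* was higher in every *VP* tumor than in every *Trp53*fl/fl tumor. For the log2 ratio and its test, 1 was added to both TPM values first. It is therefore not the log2 of the plain ratio and is not wholly free of the scaling. The difference in the mean of this log2 ratio was between 1.69 (*Fxr2*) and 2.61 (*Sat2*), and 1.84 for *Wrap53*. Each gave p = 0.1 in a two-sided exact permutation test, the smallest that 3 tumors against 3 allow, and 0.1 after Benjamini-Hochberg adjustment over the 7 ratios. All 7 ratios share *Trp53* as the denominator, so they carry its fall and are not separate results, and a p of 0.1 passes no threshold. They are given as values only.

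The whole stretch around *Trp53* was read next, first with the neighbours in it and then without them. Within 500 kb of either end of *Trp53*, GENCODE M21 lists 83 genes besides *Trp53*, 80 of these were in the table and 48 passed the filter, 7 of them the tested neighbours. Limma called 0 of the 48 at an adjusted p under 0.05. An unadjusted limma p under 0.05 was reached by 10, or 20.8%, against 12.5% of all genes tested. Of the 48 genes, 7 were higher in *VP* tumors at that p, where 4.51% of all genes were, and 3 were lower, where 8% of all genes were. The genotypes did not overlap for 13 of the 48, or 27.1% against 19.3%, with 9 higher against 6.03% of all genes and 4 lower against 13.3%. The median log2 change was -0.01. Without the neighbours, 41 tested genes were left. Of these, 9 had an unadjusted limma p under 0.05, 6 higher and 3 lower, and the genotypes did not overlap for 12 (29.3%), 8 higher and 4 lower. Their median log2 change was also -0.01. These counts are a description, and genes of 1 stretch are not independent. With the neighbours included again, the median log2 change was -0.04 in a window of 250 kb and 0.03 in a window of 1000 kb. Limma again called 0, and 6 of 26 and 12 of 77 genes were at an unadjusted p under 0.05. By side within 500 kb, also with the neighbours, 1 of 12 tested genes at lower coordinates and 9 of 36 at higher coordinates reached that p.

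**Figure D2:**
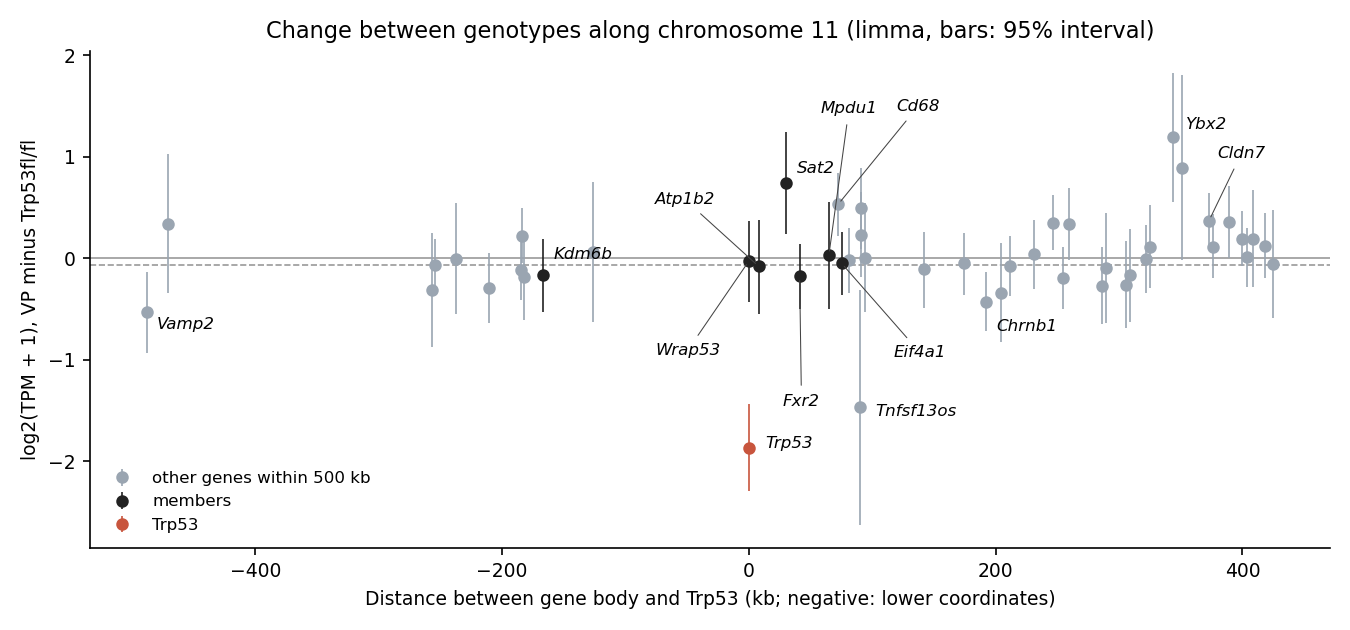
Log2 change between genotypes against the distance of each gene from *Trp53* in kb, for the 48 tested genes within 500 kb and for *Trp53*. Points are limma estimates on log2(TPM + 1), bars are 95% intervals, and the dashed line is the median of all genes tested (-0.07). *Trp53* at -1.87 lies apart from the neighbours beside it, *Tnfsf13os* has the widest interval, and *Sat2* is the highest of the black points.

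The 5 genes of the stretch with the smallest limma p, apart from the 10 neighbours, were *Ybx2*, *Cd68*, *Chrnb1*, *Cldn7* and *Vamp2*, none of which passed the adjustment. *Ybx2*, a Y-box RNA-binding protein of germ cells 343.92 kb away, was at 3.49 to 4.18 TPM in *Trp53*fl/fl tumors, while *VP* tumors had 6.40 to 14.47 TPM (log2 change 1.19, limma adjusted p = 0.246). *Cd68*, a lysosomal protein of macrophages 72.34 kb away, lies between *Mpdu1* and *Eif4a1* and was at 32.02, 26.38 and 34.53 TPM in *Trp53*fl/fl tumors, against 45.55, 47.50 and 41.71 TPM in *VP* tumors (log2 change 0.53, SE 0.13, limma adjusted p = 0.27). *Cldn7*, an epithelial tight junction protein 372.9 kb away, was at 652.61 to 726.78 against 828.12 to 985.55 TPM (log2 change 0.37, limma adjusted p = 0.317). So *Cd68* was higher in every *VP* tumor while the genes at each side of it, *Mpdu1* and *Eif4a1*, overlapped between genotypes.
*Chrnb1*, a muscle acetylcholine receptor subunit 192.16 kb away, had a log2 change of -0.43 (limma adjusted p = 0.301). *Vamp2*, a vesicle fusion protein at the far end of the lower side, had a log2 change of -0.53 (limma adjusted p = 0.317). *Tnfsf13os*, chosen after its values were seen because it had the largest difference of the stretch, was at 12.46, 12.11 and 17.66 TPM against 11.60, 2.27 and 2.78 TPM (log2 change -1.47, limma adjusted p = 0.338), with *VP* replicate 1 close to the *Trp53*fl/fl tumors. It is named as an opposite-strand gene of *Tnfsf13*, and reads from the 2 strands cannot be told apart. *Tnfsf13* itself went the other way, at 11.76, 12.80 and 17.29 TPM against 19.98, 21.83 and 17.64 TPM (log2 change 0.49, limma adjusted p = 0.341). Whether the assignment of reads played a part was not tested.

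Marker genes of the cell types in a tumor were read in the same table. The 12 epithelial markers, *Cldn7* among them, summed to 11079 to 11538 TPM in *Trp53*fl/fl tumors and to 12538 to 13564 TPM in *VP* tumors, with 3 of 12 at an unadjusted limma p under 0.05 and higher, where 4.51% of all genes tested were. The 12 neutrophil markers summed to 424 to 756 against 1220 to 2065 TPM, with 7 of 12 higher at an unadjusted limma p under 0.05 and 0 called. The 10 macrophage markers, *Cd68* among them, summed to 1280 to 1381 against 1136 to 1566 TPM, with overlap and with 2 of 10 higher at that p. Of the other lists, 2 of 8 fibroblast markers were lower at that p, where 8% of all genes were, and 1 of 8 endothelial markers was higher. No list had a gene at 0 in all tumors. The sums were 39.7 to 54.3 against 29.2 to 50.0 TPM for T cells, 860 to 946 against 726 to 1068 for fibroblasts, 93.7 to 115 against 116 to 123 for endothelium, 488 to 809 against 415 to 1347 for smooth muscle and 17.4 to 22.8 against 16.4 to 30.3 for enteric neurons and glia. Whether the difference in *Sat2* moves with the epithelial or neutrophil share was not tested. After each tumor was centred on the epithelial list, the log2 change of *Sat2* was 0.56 (limma adjusted p = 0.165), while the median of all genes moved from -0.07 to -0.249 and that of the 7 neighbours to -0.233.

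The genes that act with each neighbour were taken from lists by function. Of 91 listed genes, 75 passed the filter and limma called 0 at an adjusted p under 0.05, against 0.165% of all genes. An unadjusted limma p under 0.05 was reached by 13 of 75, or 17.3%, against 12.5%, with 5 higher and 8 lower in *VP* tumors. Their median log2 change was -0.09.

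**Figure D3:**
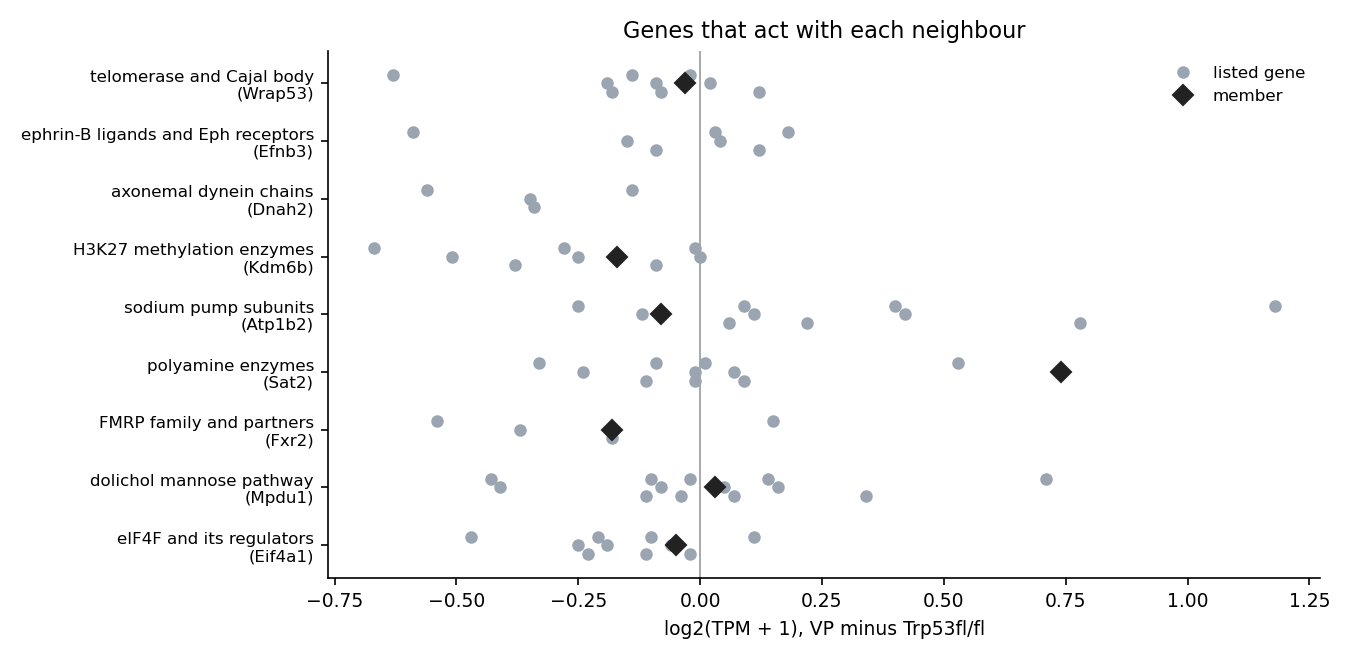
Log2 change, *VP* minus *Trp53*fl/fl on log2(TPM + 1), of the tested genes in each functional list (grey), with the neighbour the list belongs to as a black diamond where it was tested. Points of a row are spread vertically only to be seen. *Sat2* at 0.74 lies to the right of all other polyamine enzymes, and the sodium pump list reaches furthest right with *Fxyd4* at 1.18.

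The telomerase and Cajal body genes beside *Wrap53* had a median log2 change of -0.09 over 9 genes, 1 of these at an unadjusted limma p under 0.05. Of all genes tested, 12.5% were at that p. *Tert*, the catalytic subunit of telomerase, was at 2.84, 3.06 and 2.07 TPM in *Trp53*fl/fl tumors, while *VP* tumors had 1.27, 1.56 and 1.21 TPM (log2 change -0.63, SE 0.19, limma adjusted p = 0.317). Its genotypes did not overlap, unlike those of *Wrap53*. *Coil*, the coilin scaffold of Cajal bodies, had a log2 change of -0.19 (limma adjusted p = 0.607). The Eph and ephrin genes beside *Efnb3* had a median of 0.03 over 7 tested genes. *Ephb6*, a kinase-dead Eph receptor, was at 34.17, 34.24 and 46.91 TPM against 24.29, 19.02 and 33.19 TPM in *VP* tumors (log2 change -0.59, limma adjusted p = 0.362), and *Efnb1* had a log2 change of 0.18 (limma adjusted p = 0.512). *Efnb1* and *Efnb2*, the other ephrin-B ligands, were at 33.07 to 40.49 and 13.89 to 24.05 TPM, far above *Efnb3*. Of 16 dynein chains beside *Dnah2*, 4 passed the filter, led by *Dnah8* (log2 change -0.56, limma adjusted p = 0.384) and *Dnal1* (-0.34, limma adjusted p = 0.431). The other 12 dynein genes, like *Dnah2*, did not reach the filter.

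The H3K27 methylation genes beside *Kdm6b* had a median log2 change of -0.26 over 8 genes, with 2 of 8 at an unadjusted limma p under 0.05. The share of all genes tested at that p was 12.5%. *Ezh2*, the methyltransferase that sets the mark, was at 47.13, 46.50 and 49.71 TPM in *Trp53*fl/fl tumors, against 38.50, 29.12 and 32.50 TPM in *VP* tumors (log2 change -0.51, SE 0.13, limma adjusted p = 0.269). *Jarid2*, a cofactor of the same complex, had a log2 change of -0.67 (limma adjusted p = 0.301). The genotypes did not overlap for 4 of these 8 genes, all lower in *VP* tumors, where 13.3% of all genes tested were lower without overlap. *Kdm6b* itself overlapped. The sodium pump genes beside *Atp1b2* had a median of 0.17 over 10 genes. At an unadjusted limma p under 0.05 there were 2 of 10, again against 12.5% of all genes tested. *Fxyd4*, a pump regulator of colon and kidney, was at 36.23, 25.22 and 41.54 TPM against 108.12, 71.98 and 60.02 TPM in *VP* tumors (log2 change 1.18, SE 0.26, limma adjusted p = 0.234), and *Fxyd1* had a log2 change of 0.78 (limma adjusted p = 0.312). The other beta subunits, *Atp1b1* (469.70 to 659.29 TPM) and *Atp1b3* (45.76 to 67.88 TPM), were far more abundant than *Atp1b2*.

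The polyamine genes beside *Sat2* had a median log2 change of -0.01 over 10 genes. Against 12.5% of all genes tested, 1 of these 10 was at an unadjusted limma p under 0.05. That gene, *Paox*, the oxidase that breaks down acetylated polyamines, was at 5.74, 5.08 and 5.40 TPM in *Trp53*fl/fl tumors, while *VP* tumors had 10.80, 6.95 and 7.49 TPM (log2 change 0.53, SE 0.18, limma adjusted p = 0.341). *Sat1*, the main acetyltransferase of the pathway, was at 228.91 to 293.52 TPM against 219.60 to 250.30 TPM, far above *Sat2* and with overlap (log2 change -0.09, limma adjusted p = 0.791). *Amd1*, which makes the aminopropyl donor for spermidine, had a log2 change of -0.33 (limma adjusted p = 0.406). The fragile X family genes and their partners *Cyfip1* and *Cyfip2*, listed beside *Fxr2*, had a median log2 change of -0.28 over 4 genes. *Fxr1* was at -0.54 (limma adjusted p = 0.388) and *Fmr1* at -0.37 (limma adjusted p = 0.511), both with overlap. Without *Trp53*fl/fl replicate 2, the highest tumor for both, they were at -0.32 and -0.15. The dolichol-linked sugar genes beside *Mpdu1* had a median of -0.02 over 13 genes, with 2 higher and 2 lower at an unadjusted limma p under 0.05. Over all genes tested, 4.51% were higher and 8% lower at that p. *Dpm1*, the catalytic subunit of dolichol-phosphate mannose synthase, whose product *Mpdu1* helps to use, was at 14.09, 26.03 and 20.40 TPM against 38.66, 32.38 and 27.88 TPM (log2 change 0.71, limma adjusted p = 0.325), and *Alg10b* had a log2 change of -0.41 (limma adjusted p = 0.319). The eIF4F genes beside *Eif4a1* had a median of -0.15 over 10 genes, led by *Eif4g3* (log2 change -0.23, limma adjusted p = 0.413). *Eif4a2*, the paralog of *Eif4a1*, was at 182.17, 267.87 and 146.01 TPM against 126.54, 147.70 and 141.47 TPM (log2 change -0.47, limma adjusted p = 0.416). Near-identical stretches of *Eif4a1* and *Eif4a2* could exchange reads, depending on how the authors' counting assigned them.

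The profiles of *Wrap53* and *Sat2* over the 6 tumors were compared with those of 15116 other genes by the root mean square difference of centred log2(TPM + 1) values. The closest to *Wrap53* were *Birc5*, the mitotic protein survivin (0.034), *Mthfd1*, a folate enzyme (0.036), and *Wdr31* (0.036), where the median gene was at 0.27. *Birc5* was at 65.35, 66.00 and 75.94 TPM in *Trp53*fl/fl tumors, against 65.92, 80.40 and 57.50 TPM in *VP* tumors, with its highest value in *VP* replicate 2 and its lowest in *VP* replicate 3, like *Wrap53*. The closest to *Sat2* were *Igfbp1*, an insulin-like growth factor binding protein (0.079), *Gm47708* (0.121) and *Ctse*, the protease cathepsin E (0.132), where the median gene was at 0.5. *Igfbp1* was at 0.51 to 1.0 against 1.1 to 2.4 TPM and *Gm47708* at 0.73 to 1.12 against 1.95 to 2.59 TPM. Both were near the 1 TPM of the filter, which only replicate 2 of the *Trp53*fl/fl tumors reached. *Ctse* was at 55.10, 59.32 and 54.81 TPM against 96.91, 81.47 and 111.83 TPM, with *VP* replicate 2 lowest of the *VP* tumors as for *Sat2*. With 6 tumors and so many genes, close profiles occur without any link between genes.

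**Figure D4:**
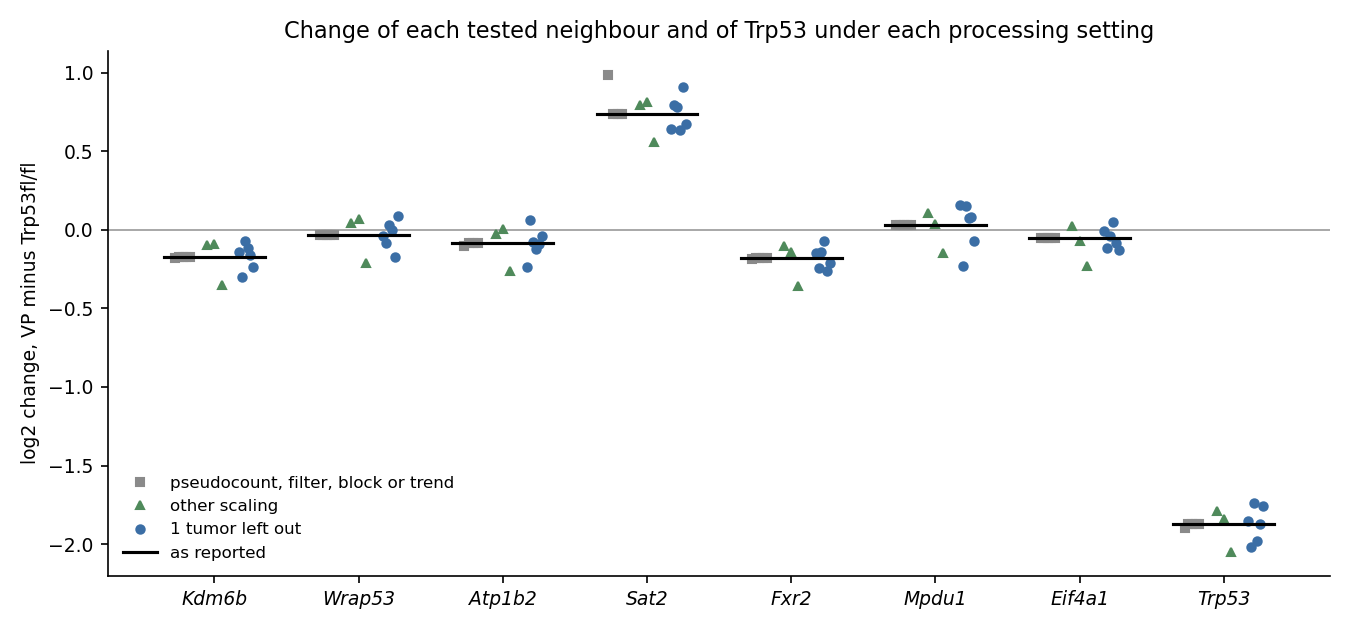
Log2 change, *VP* minus *Trp53*fl/fl, of the 7 tested neighbours and *Trp53* as reported (black lines) and under each alternative (grey squares for the pseudocount, filter, block and trend, green triangles for other scalings, blue circles for 1 tumor left out). *Sat2* stays between 0.56 and 0.99 and *Trp53* between -2.05 and -1.74, while *Wrap53*, *Atp1b2*, *Mpdu1* and *Eif4a1* lie on both sides of 0.

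Over the 14 alternative settings, 0 of the 7 tested neighbours were called by limma at an adjusted p under 0.05. *Sat2* was positive, and *Kdm6b* and *Fxr2* were negative, in every setting that tested them. The lowest log2 change of any neighbour in any setting was -0.36 (*Fxr2*, tumors centred on epithelial genes), against -1.74 for the smallest fall of *Trp53*.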

How the data were processed

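The authors made paired-end libraries of poly(A)-selected RNA from 6 tumors and deposited 1 TPM value per gene and tumor. The submitters' processing notes name HISAT2, StringTie and the build mm9, and no annotation, so gene names are the deposited ones and positions come from GENCODE M21 (GRCm38), in which 52093 of 54167 IDs (96.17%) have an entry. The column sums were 999964 to 1000067. TPM keep no read numbers, so depth and counting error are unknown. From the TPM, log2(TPM + 1) was tested with limma 3.58.1 in R 4.3.3 (empirical Bayes with trend, Benjamini-Hochberg adjustment, 3 tumors per genotype), for genes that reached 1 TPM in 3 or more tumors. The procedure was tested on simulated data. The labels do not say whether replicates are tumors of separate mice, so p-values measure the spread between these samples.

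The neighbours and lists were chosen with earlier results of these data known. Named were the neighbours, *Trp53*, the 5 genes within 500 kb with the smallest p, the 2 of each list with the smallest p and the 3 closest profiles. Other genes were chosen after their values were seen. Alternatives were a pseudocount of 0.1, no filter, a filter on a mean of 5 TPM, scaling by median-of-ratios, quantiles or epithelial genes, the replicate number as a block, no trend, other windows and each tumor left out.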

Additional observations from a re-analysis of the deposited data

How the results depend on the processing

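The count of called genes over the whole table was 25 as reported, 7 without a filter, 44 with epithelial centring, 10 with the replicate number as a block, and 3 to 23 when 1 tumor was left out. The median log2 change of the 7 neighbours was -0.233 with epithelial centring, and that of the genes within 500 kb was 0.052 with median-of-ratios scaling and -0.193 with epithelial centring. Those settings moved the median of all genes to 0.001 and -0.249. *Trp53* lost its call without a filter (limma adjusted p = 0.104) and with the replicate block (0.0883). Among the 37 tested genes named by the rules above, the block changed no other call. Same-numbered tumors did not deviate together more than others (correlations of 0.019, -0.052 and 0.018, against -0.108 to 0.095 for differently numbered tumors). With so few tumors these values cannot show whether the numbers pair them. Small changes reversed their sign in some settings, and the cause was not tested. With median-of-ratios scaling the log2 changes were 0.041 for *Wrap53*, 0.024 for *Eif4a1*, 0.043 for *Birc5* and 0.013 for *Mthfd1*. With quantile scaling they were 0.067 for *Wrap53* and 0.005 for *Atp1b2*. With epithelial centring they were -0.150 for *Mpdu1*, -0.003 for *Efnb1* and -0.178 for *Wdr31*, which was at -0.001 with a pseudocount of 0.1. With 1 tumor left out, *Wrap53* ranged from -0.173 to 0.085, *Atp1b2* from -0.237 to 0.065, *Mpdu1* from -0.227 to 0.161, *Eif4a1* from -0.126 to 0.049, *Birc5* from -0.161 to 0.078, *Mthfd1* from -0.209 to 0.042 and *Wdr31* from -0.137 to 0.086. In all, 484 of 512 values for 37 named genes kept their direction and side of the threshold, 22 reversed and 6, all of *Trp53*, lost the call.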
